A study of Homo sapiens with 9 samples.

Results

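WWOX-expressing MDA-MB435S cells were compared with cells of the same line that carry an empty vector (EV), across every gene on the array. Of the 9 arrays of the series, 6 enter this comparison, 3 titled for WWOX and 3 titled for the empty vector. The other 3 arrays hold cells with the WFPA mutant of WWOX and serve here only to mark which changes the mutant shares. MDA-MB435 (MDA-MB435S) is an established line of metastatic melanoma, and the groups differ by construct: EV, wild-type WWOX, or WWOX with the WFPA mutation. All cells were grown in DMEM with serum, and stable clones made with a lentiviral vector were selected with G418. A group of clones differs from its control by the history of the clone as well as by the construct. Whether a group's 3 arrays came from separate cultures or clones is not stated, so p-values measure only the spread between these arrays, which may be technical.

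The labels contradict themselves on the construct. The EV arrays carry the addition wox+ in their titles and wild-type WWOX in the vector field, and the WWOX arrays carry none in that field. The titles were followed. If the vector field were right, each difference between WWOX and EV cells below would turn its sign, and the differences given for the mutant against EV cells would be against WWOX cells. Total RNA of each sample was read on Affymetrix U133 Plus 2.0 arrays, and the deposited values are log2 intensities. The number of arrays limits the precision. Array medians ran from 6.03 to 6.05 and lower quartiles from 4.23 to 4.34. The files give no background level, so the size of a change is uncertain where 1 of the levels lies under the lower quartile. Over the 6 arrays, the first principal component held 58.4% of the variance and separated the groups, with EV arrays from -56.1 to -53.9 and WWOX arrays from 43.0 to 68.5. The second held 17.6% and set WWOX replicate 3 (55.7) apart from WWOX replicates 1 and 2 (-42.7 and -24.6).

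WWOX is a tumor suppressor at a fragile site that is often damaged in cancer. Its protein has a pair of WW domains, which bind partner proteins, and a short-chain dehydrogenase domain. The WFPA mutation disrupts binding through the first WW domain. Melanoma cells descend from melanocytes, which like Schwann cells arise from the neural crest. SOX10 and MITF are the transcription factors that maintain the melanocyte lineage, and melanoma lines differ in how much of this lineage program they keep.

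WWOX itself was higher in the WWOX arrays, which is the direction the titles give. At its brightest probe set by the mean of the 9 arrays, WWOX read 9.26, 8.80 and 8.74 in EV cells and 10.80, 10.83 and 10.34 in WWOX cells. The groups did not overlap, and the difference was 1.72 (log2, SE 0.174, limma adjusted p = 0.000295), a 3.29-fold rise, where SE is the standard error of the difference. In WFPA cells the same probe set read 10.35, 10.12 and 10.25, above all EV arrays and overlapping with WWOX cells. A dimmer WWOX probe set read 4.44, 4.83 and 4.21 in EV cells against 8.46, 8.20 and 7.87 in WWOX cells, a difference of 3.68 (SE 0.183, limma adjusted p = 3.45e-06). The remaining 3 of its 5 probe sets did not pass, with differences of 0.12, 1.23 and -0.23. The sources do not say which of the 5 can read the introduced construct.

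WWOX cells differed from EV cells at 417 genes that rose and 354 that fell. Rises of over 32-fold included the lineage genes SOX10 and S100B, the matrix gene MGP, the glycosylation enzyme TMTC1, ROPN1 and the long non-coding RNA LINC00326. The falls of over 16-fold were those of PTPRC and ACTL8. Calls needed a 2-fold difference and, in limma, an adjusted p (Benjamini-Hochberg) under 0.05, and each gene is represented by its brightest probe set. Of 19775 genes, 2.11% were called higher and 1.79% lower. Of 54613 probe sets, 904 were called higher (1.66%) and 894 lower (1.64%).

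Large changes were mostly rises. Among genes called higher, 157 changed at least 4-fold, 73 at least 8-fold, 33 at least 16-fold and 15 at least 32-fold. Among genes called lower the numbers were 90, 29, 2 and 0. The median change of the called genes was 1.63 for rises and -1.45 for falls (log2), against 0.03 over all genes. A level in EV cells under the lower quartile of the arrays was found for 64 of the genes that rose, and 30 of these reached a level over the array median in WWOX cells. Conversely, 34 genes fell to a level under the lower quartile, 12 of them from over the median. Of the genes called higher, 369 were protein-coding and 44 were lncRNAs. Of those called lower, 297 were protein-coding and 52 were lncRNAs.

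**Figure D1:**
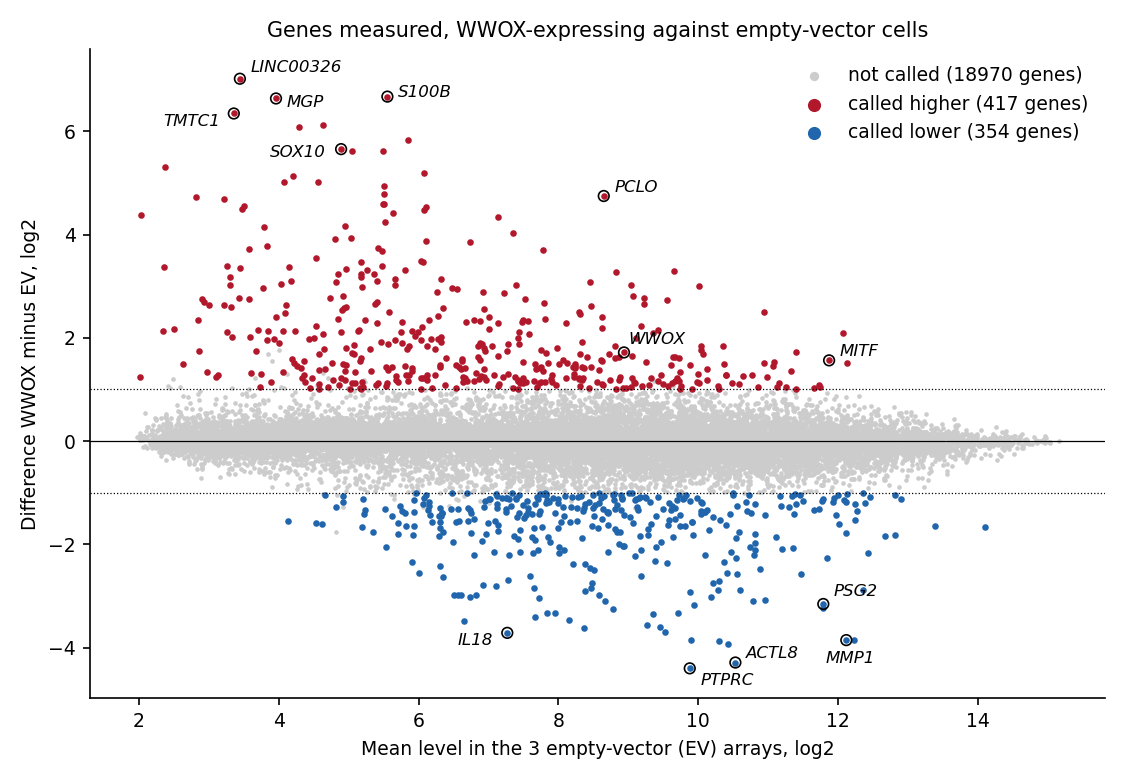
Difference between WWOX and EV cells (y axis, log2) against the mean level in the 3 EV arrays (x axis, log2), 1 point per gene, with dotted lines at 2-fold. The 417 genes called higher (red) reach further from 0 than the 354 called lower (blue), and the rises of over 32-fold start from EV levels of at most 6.08 (GASK1B).

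The arrays of both groups were apart for most calls. In 416 of the 417 genes called higher, all 3 WWOX arrays lay above all 3 EV arrays, and in 354 of the 354 called lower they lay below. This separation is common without a call, since 3163 genes (16%) had all WWOX arrays above and 3259 (16.5%) all below. More than 1 probe set was present for 268 of the genes called higher, and at least 2 probe sets were called higher in 120 of these. The same held for 78 of the 195 genes called lower with more than 1 probe set. Only 1 gene, SETBP1, had probe sets called in both directions (chosen after its values were seen).

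Several genes of the neural crest and of Schwann cells rose. On a list of 28 measured genes of this kind, 7 (25%) rose and 0 fell, where 2.11% of all genes were called higher and 1.79% lower. The 7 were S100B, SOX10, FABP7, SNAI2, MIA, CDH19 and ERBB3. The list median was 0.32 (log2) against 0.03 over all genes. This list and those below were written with earlier results of these data known, so their counts are a description and not a test. SOX10, the lineage transcription factor, read 4.67, 5.05 and 4.96 in EV cells and 10.53, 10.44 and 10.67 in WWOX cells. The groups were far apart relative to the spread within each. The difference was 5.66 (SE 0.119, limma adjusted p = 4.94e-08), or 50.4-fold, and the other SOX10 probe set rose by 3.00.

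S100B, a calcium-binding protein used as a marker of melanocytic and glial cells, went from 5.62, 5.75 and 5.30 in EV cells to 12.37, 11.96 and 12.36 in WWOX cells. This was a difference of 6.67 (SE 0.223, limma adjusted p = 3.94e-07), or 102-fold, among the largest of any gene. A dimmer S100B probe set did not pass, with a difference of 0.44. FABP7, a lipid carrier of glial precursors, read 5.21, 4.94 and 4.63 in EV cells and 8.31, 7.91 and 6.98 in WWOX cells. CDH19, a cadherin of Schwann cell precursors, read 3.32, 3.40 and 3.07 against 5.76, 5.37 and 4.98. In both, the groups did not overlap, and WWOX replicate 3 was the lowest of its group. FABP7 rose by 2.81 (SE 0.322, limma adjusted p = 0.000612) and CDH19 by 2.11 (SE 0.188, limma adjusted p = 0.000131).

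SNAI2, a transcription factor that acts in neural crest migration, read 7.29, 7.43 and 7.83 in EV cells and 10.47, 10.34 and 10.02 in WWOX cells, a rise of 2.76 (SE 0.159, limma adjusted p = 8.18e-06). MIA, a protein secreted by melanoma cells, read 7.63, 7.46 and 7.34 against 9.61, 9.63 and 10.13. The receptor kinase ERBB3, through which neuregulin acts on Schwann cell precursors, read 8.41, 8.32 and 8.69 against 9.90, 10.05 and 9.75. No EV array reached the WWOX arrays in any of these genes. MIA rose by 2.31 and ERBB3 by 1.43, with adjusted p = 1.53e-05 and 8.34e-05 from limma. ERBB3 was the 1 gene called among 34 on a list of receptor tyrosine kinases (2.94%, against 2.11% called higher over all genes). That list leaves out the ephrin receptors, of which EPHA2 fell by 1.18.

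In the melanocyte pigment and melanosome list, 4 of 22 genes (18.2%) rose (CITED1, MYO5A, MITF and GPNMB) and 0 fell, with a median of 0.26. Of all genes, 2.11% were called higher and 1.79% lower. MITF, the master regulator of melanocytes, was already high in EV cells at 11.89, 11.83 and 11.90 and read 13.60, 13.45 and 13.26 in WWOX cells. It rose by 1.56 (SE 0.101, limma adjusted p = 1.71e-05), and all 3 of its probe sets were called higher. CITED1, a transcriptional co-activator of melanocytic cells, went from 5.91, 6.53 and 6.53 to 10.01, 9.36 and 9.04, a rise of 3.14 (adjusted p = 8.5e-05 from limma). MYO5A, the motor that carries melanosomes, read 10.11, 9.99 and 10.07 against 11.90, 11.84 and 11.50, and GPNMB, a melanosome glycoprotein, 11.82, 11.81 and 11.60 against 12.86, 12.85 and 12.65. The WWOX arrays were above the EV arrays in each. The long non-coding RNA BANCR, described in melanoma, read 5.26, 5.38 and 5.77 against 9.39, 9.06 and 9.02 and rose by 3.69 (adjusted p = 1.16e-06 from limma).

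Other pigment and melanosome genes, given here, were not called. Tyrosinase (TYR) averaged 5.46 in EV and 5.75 in WWOX cells, TYRP1 2.26 and 2.21, PMEL 5.80 and 5.77, and MLANA 4.38 and 4.43 (log2, n = 3 each). All of them lay under the array median in both groups. Among the 11 measured melanocyte markers, MITF, GPR143 and RAB38 were the ones above the median in EV cells, and SOX10 and S100B joined them in WWOX cells. The log2 levels of the 11 genes summed to 71.4 to 72.2 in EV cells, 71.0 to 72.1 in WFPA cells and 85.0 to 86.2 in WWOX cells. The rise of this sum lies in SOX10, S100B and MITF, and the median difference of the 11 genes was 0.14. In bulk RNA, more cells of a type and more RNA per cell cannot be told apart, here and below.

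**Figure D2:**
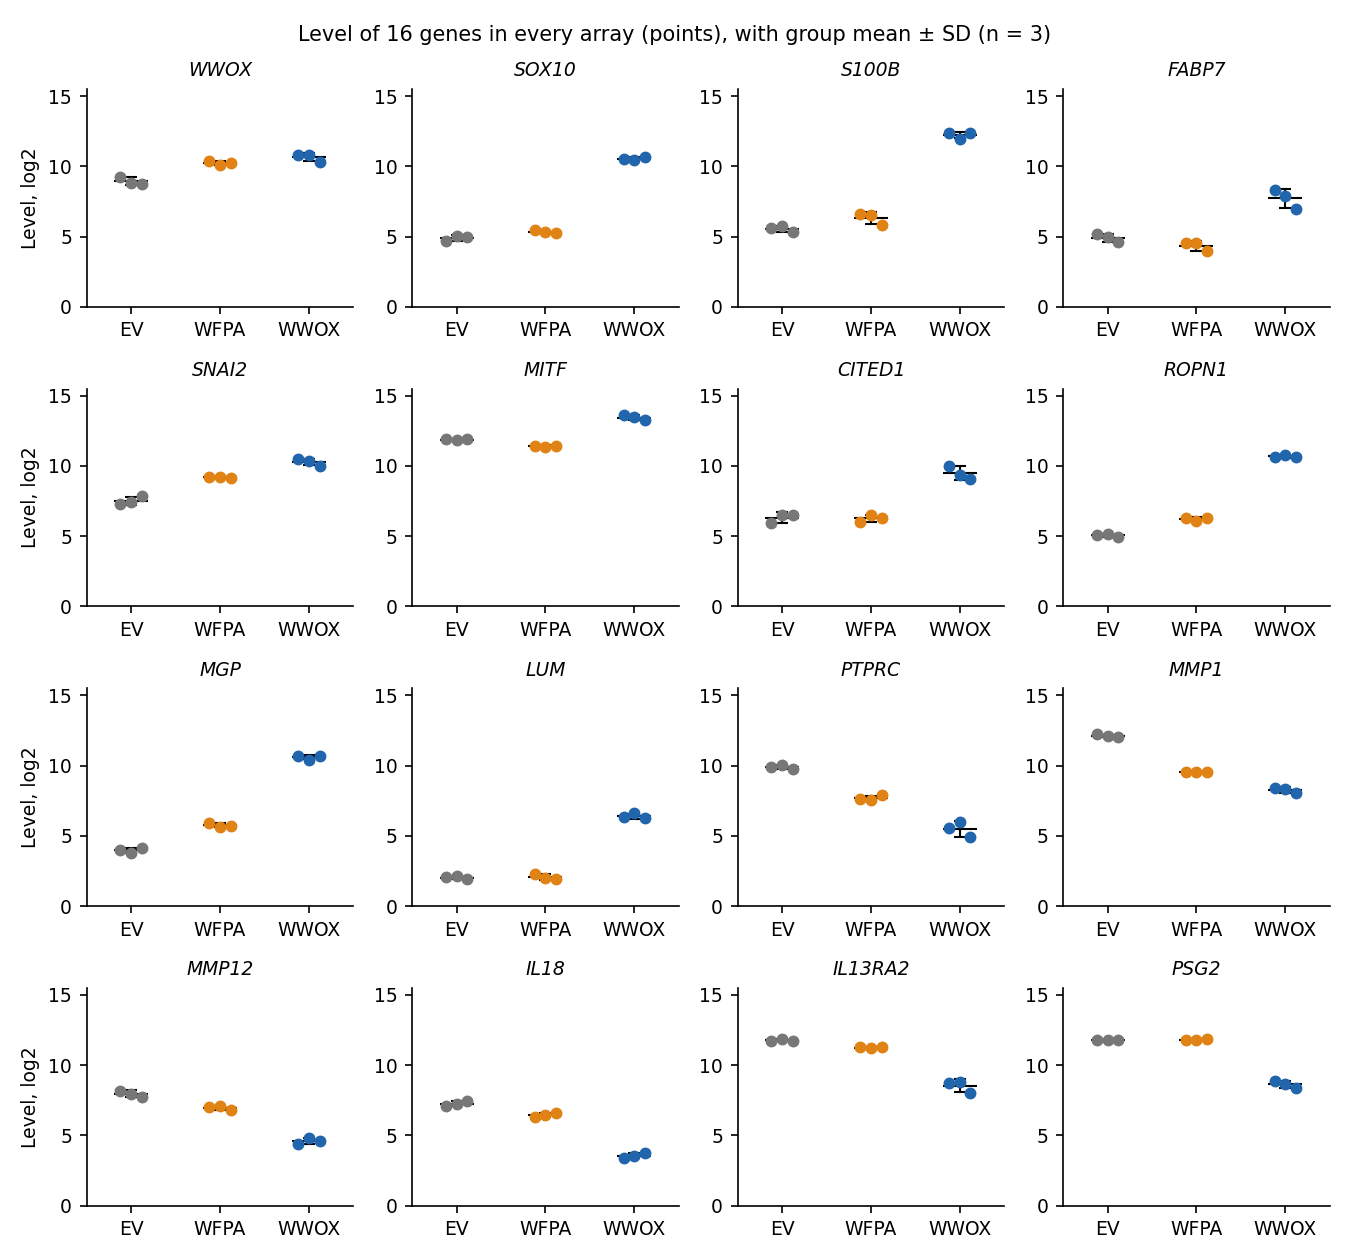
Log2 level (y axis) of 16 genes in every array, 1 point per array, for EV (grey), WFPA (orange) and WWOX (blue) cells, with a black mark for the mean and SD (n = 3). SOX10 and S100B lie low in EV and WFPA cells and high in WWOX cells, while MMP1 and PTPRC step down from EV through WFPA to WWOX cells.

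The promoters of some of these genes can be read for the letters that SOX factors recognize. The sequences below run from 250 bases before to 50 bases after the RefSeq gene start (build GRCh38.p14), 5′ to 3′ on the strand of the gene. They are shown because these genes belong to the lists above and hold ACAAAG (FABP7) or the related ACAATG (MITF), which stands in capitals. These promoters were picked for holding a match, and the other promoters of genes on these lists are not shown. Only the RefSeq gene start was read, so starts of other transcripts of a gene are not covered. FABP7 lies at chr6:122779466-122779765 on the plus strand and MITF at chr3:69739214-69739513 on the plus strand. The match starts at position -162 and -214 from the gene start, in that order.
FABP7: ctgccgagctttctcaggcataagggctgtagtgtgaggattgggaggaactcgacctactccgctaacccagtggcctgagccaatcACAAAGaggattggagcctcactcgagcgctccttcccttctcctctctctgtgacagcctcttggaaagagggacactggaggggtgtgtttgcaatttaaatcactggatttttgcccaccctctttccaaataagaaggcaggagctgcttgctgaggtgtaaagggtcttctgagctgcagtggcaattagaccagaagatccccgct
MITF: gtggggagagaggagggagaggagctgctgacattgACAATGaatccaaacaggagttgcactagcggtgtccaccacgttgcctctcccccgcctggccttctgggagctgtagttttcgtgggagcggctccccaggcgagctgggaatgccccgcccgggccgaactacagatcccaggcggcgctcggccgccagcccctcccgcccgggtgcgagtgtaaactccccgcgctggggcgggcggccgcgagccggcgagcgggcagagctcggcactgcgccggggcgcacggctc

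ACAAAG was looked for on both strands in all 15384 promoters of measured genes that the table holds, and 13.1% held it. The share was 15.9% of 315 promoters of genes called higher and 12.8% of 265 of genes called lower. For ACAATG the shares were 8.1%, 8.89% and 6.79%. Of the 7 neural crest list genes that rose 3 had a promoter in the table, and of the 4 melanocyte list genes all 4. A match of 6 letters is a description of the sequence and not a binding site.

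Genes of other families were among the largest rises. LINC00326, a long non-coding RNA, had the largest difference of any gene, from 3.30, 3.64 and 3.40 in EV cells to 10.45, 10.39 and 10.55 in WWOX cells, or 7.02 (SE 0.235, limma adjusted p = 3.94e-07). MGP, an inhibitor of calcification in the matrix, lay between 3.75 and 4.13 in EV cells and read 10.69, 10.42 and 10.69 in WWOX cells, or 6.64 (SE 0.134, limma adjusted p = 4.52e-08). Both started under the lower quartile of the arrays. The synaptotagmin-like protein SYTL5, a RAB27 effector, read 3.89, 5.05 and 4.98 against 10.72, 10.85 and 10.69. ATP6V0D2, a subunit of the vacuolar proton pump, read 6.21, 5.58 and 5.77 against 11.73, 11.80 and 11.52. Their rises were 6.12 and 5.83, with adjusted p = 2.63e-06 and 4.54e-07 from limma.

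The sperm flagellum proteins ROPN1 and ROPN1B, also known as cancer-testis antigens of melanoma, rose by 5.62 and 5.61. ROPN1 read 5.08, 5.16 and 4.93 in EV cells and 10.62, 10.78 and 10.63 in WWOX cells, and ROPN1B between 5.03 and 5.84 against 11.18, 11.27 and 10.87. The levels of both groups were apart in each gene. These genes are close paralogs, and a probe set of one may read the other. They were the 2 genes called among 23 on the cancer-testis list (8.7%, against 2.11% called higher over all genes). The splicing regulator ESRP1, an epithelial gene, read 4.05, 3.23 and 4.97 against 9.03, 9.39 and 8.91 and rose by 5.03 (SE 0.426, limma adjusted p = 9.33e-05).

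Enzymes that build and cap glycans gave 8 rises, a count without a test of the list. They were 8 (20.5%) of the 39 genes on the list of O-mannosylation, sialylation and fucosylation, on which 2 (5.13%) fell. Of all genes, 2.11% were called higher and 1.79% lower. TMTC1, an O-mannosyltransferase of the endoplasmic reticulum, went from 3.63, 3.46 and 2.98 in EV cells to 9.77, 9.88 and 9.47 in WWOX cells, a rise of 6.35 (SE 0.196, limma adjusted p = 2.51e-07). ST8SIA1, the synthase of the ganglioside GD3, read 3.72, 4.31 and 3.45 against 7.90, 7.93 and 7.03, and ST6GALNAC2, a sialyltransferase of O-glycans, 8.60, 8.30 and 8.45 against 11.45, 11.51 and 11.66. Neither gene overlapped between the groups, and they rose by 3.79 and 3.09 (adjusted p = 7.64e-05 and 4.46e-07 from limma). GALNT3, which starts O-glycans, rose by 3.02. The sialyltransferases ST8SIA4, ST6GAL1, ST3GAL6 and ST3GAL4 rose by 2.76, 1.81, 1.46 and 1.38. The sialyltransferase ST6GALNAC3 fell by 2.75 and the fucosyltransferase FUT8 fell by 1.04, a call lost without EV replicate 2 or WWOX replicate 2. The list median was 0.12.

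Matrix genes went in both directions. Of 48 glycoproteins and proteoglycans, 5 rose and 6 fell, and of 41 collagens and collagen enzymes, 5 rose and 4 fell. The mutant shared 2 of the 5 rises and 4 of the 6 falls among the glycoproteins and proteoglycans. Among the collagens and their enzymes it shared 4 of the 5 rises and 1 of the 4 falls. LUM, a small proteoglycan of collagen fibrils, read 2.07, 2.12 and 1.90 in EV cells, near the bottom of the scale, and 6.34, 6.61 and 6.27 in WWOX cells, a rise of 4.38 (adjusted p = 2.22e-07 from limma). Its second probe set did not pass (-0.25). The syndecan SDC3 rose by 3.15, the network collagen COL8A1 by 3.08 and the fibrillar collagen COL1A2 by 2.12. RELN, a secreted guidance glycoprotein, fell by 3.56, POSTN, a matricellular protein, fell by 3.24 and the laminin chain LAMB3 fell by 2.35. COL5A1, COL27A1 and COL4A6 fell by 1.72, 1.98 and 1.82. None of 24 integrin genes was called, where 2.11% of all genes were called higher and 1.79% lower.

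LUM, COL1A2 and FAP also stand on a list of 14 fibroblast markers, of which these 3 rose and POSTN fell. The rises were 21.4% and the fall 7.14% of the list, against 2.11% and 1.79% over all genes. The defining fibroblast genes PDGFRA (3.90 in EV and 3.89 in WWOX cells), DCN (4.90 in WWOX cells, a difference of -0.10) and COL3A1 (5.40 and 5.34) lay under the array median in both groups. The log2 levels of the 14 markers summed to 71.7 to 73.4 in EV, 73.2 to 73.5 in WFPA and 76.3 to 79.2 in WWOX cells, and their median difference was 0.04.

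Metalloproteinases and other matrix proteases changed in both directions, with 4 rises and 4 falls on a list of 40. Each was 10% of the list, against 2.11% and 1.79% over all genes. The list does not hold every gene of the family. ADAMTS2, which is not on the list, also fell and is described with the mutant. The listed falls were those of the neighboring collagenase MMP1, stromelysin MMP3 and macrophage elastase MMP12, and of ADAMTS6. MMP1 read 12.21, 12.08 and 12.06 in EV cells and 8.42, 8.35 and 8.01 in WWOX cells, and it fell by 3.85 (SE 0.116, limma adjusted p = 2.36e-07), or 14.5-fold. MMP12 read 8.19, 7.95 and 7.70 against 4.38, 4.82 and 4.64, and MMP3 14.12, 14.04 and 14.13 against 12.50, 12.29 and 12.48. The WWOX arrays were below the EV arrays in all of these genes. MMP12 fell by 3.34 and MMP3 fell by 1.67, with adjusted p = 2.36e-06 and 5e-06 from limma.

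The gelatinase MMP2 rose by 1.32 and the neutrophil collagenase MMP8 by 2.60. The surface protease FAP and the cathepsin CTSS rose by 1.59 and 1.05, and the call of CTSS was lost when EV replicate 1 or 3, or WWOX replicate 1 or 2, was left out. TIMP3, a matrix-bound inhibitor of metalloproteinases, read 8.77, 8.95 and 8.73 in EV cells and 12.15, 12.13 and 12.02 in WWOX cells, a rise of 3.28 (SE 0.0961, limma adjusted p = 2.22e-07), and all 4 of its probe sets were called higher. SERPINE2, a serine protease inhibitor, read 12.15, 12.01 and 12.03 against 14.13, 14.15 and 14.21 and rose by 2.10 (adjusted p = 8.03e-07 from limma). In both inhibitors the arrays of the groups were apart. SERPINB7 fell by 2.21, SERPINF1 fell by 2.21 and the coagulation inhibitor TFPI fell by 1.36.

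**Figure D3:**
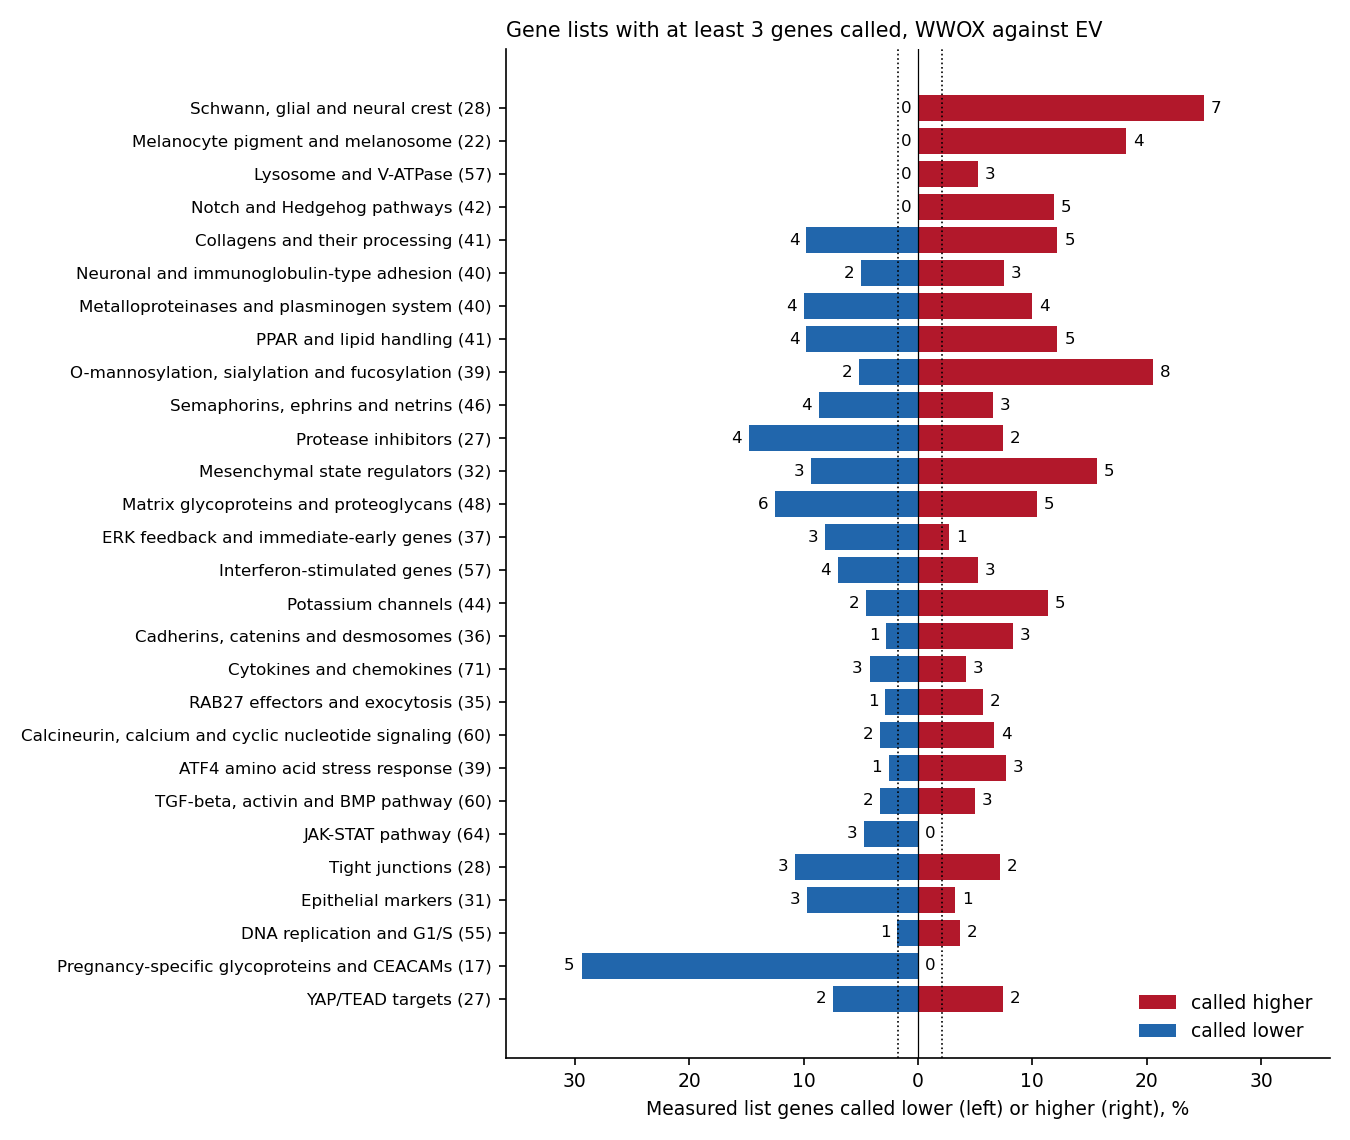
Share of the measured genes of each list that were called higher (right, red) or lower (left, blue) in WWOX against EV cells, for lists with at least 3 calls, ordered by the list median. Numbers at the bars are genes called, numbers in brackets are genes measured, and dotted lines give the shares over all genes (2.11% and 1.79%). The neural crest list reaches 25% on the right and the pregnancy-specific glycoproteins 29.4% on the left. The lists were written with earlier results of these data known, so these shares are a description and not a test.

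Among pregnancy-specific glycoproteins, secreted relatives of the CEACAM adhesion molecules, falls were the only calls. Of 17 genes on the list 5 (29.4%) fell (PSG2, PSG6, PSG3, PSG5 and PSG9) and 0 rose. Of all genes, 1.79% were called lower and 2.11% higher. PSG2 read 11.76, 11.80 and 11.81 in EV cells and 8.90, 8.63 and 8.37 in WWOX cells, and it fell by 3.15 (SE 0.127, limma adjusted p = 9.85e-07). PSG3 read 8.69, 8.90 and 8.95 against 7.07, 6.96 and 7.24 and PSG9 10.50, 10.26 and 10.42 against 8.86, 8.99 and 8.44. No array of WWOX cells reached the EV arrays. The PSG genes are near-identical copies in 1 cluster on chromosome 19, so their probe sets may share transcripts and the 5 falls are not separate measurements.

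PTPRC (CD45), a receptor phosphatase of blood cells, had the largest fall. It read 9.88, 10.04 and 9.72 in EV cells and 5.58, 5.97 and 4.88 in WWOX cells, and it fell by 4.40 (SE 0.244, limma adjusted p = 6.12e-06), or 21.1-fold. Of its 5 probe sets 3 were called lower. Defining markers of other blood cells lay low in both groups or did not fall. CD3E averaged 3.06 in EV and 3.18 in WWOX cells and CD14 5.41 and 5.51, while LCP1, which tumor lines also express, averaged 11.56 and 12.03. On the list of 17 haematopoietic markers PTPRC and HBE1 fell (11.8%, against 1.79% over all genes) and 0 rose. The log2 levels of the list summed to 102.2 to 102.9 in EV, 101.6 to 103.2 in WFPA and 97.7 to 99.4 in WWOX cells. Its median difference was 0.09. ACTL8, an actin-like protein known as a cancer-testis antigen, read 10.76, 10.46 and 10.37 against 6.27, 6.10 and 6.36 and fell by 4.29 (SE 0.141, limma adjusted p = 3.77e-07).

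Signaling genes with calls were few on each list. IL18, an inflammasome cytokine, read 7.12, 7.26 and 7.42 in EV cells and 3.41, 3.50 and 3.75 in WWOX cells, and it fell by 3.71 (adjusted p = 4.27e-07 from limma). CASP1, which processes IL18, read 7.36, 7.81 and 7.72 against 5.71, 5.41 and 5.30 and fell by 2.16, and CASP4 fell by 1.17. The endotoxin receptor TLR4 fell by 2.76. On the JAK-STAT list 0 of 64 genes rose and 3 fell (4.69%, against 1.79% over all genes). These were the decoy receptor IL13RA2, at 11.74, 11.87 and 11.73 in EV cells and 8.76, 8.83 and 8.04 in WWOX cells, the feedback inhibitor SOCS2, at 10.89, 10.56 and 10.77 against 8.90, 8.59 and 8.57, and the receptor LIFR. They fell by 3.23, 2.06 and 1.21 (adjusted p = 7.93e-06, 9.89e-06 and 0.00735 from limma), and the call of LIFR was lost when WWOX replicate 2 was left out. The groups did not overlap in IL18, CASP1, IL13RA2 and SOCS2.

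Interferon-stimulated genes gave 3 rises (5.26%) and 4 falls (7.02%) among 57, against 2.11% and 1.79% over all genes. The antiviral genes CMPK2, SAMD9 and SAMD9L fell by 3.41, 2.87 and 2.04, and IFITM1, GBP2 and OASL rose by 1.50, 1.12 and 1.04. The call of IFITM1 was lost without any 1 of the EV arrays and that of OASL without EV replicate 1 or 2 or WWOX replicate 3. That of GBP2 was lost with its most variable probe set. CD274, which encodes the checkpoint ligand PD-L1, read 8.78, 8.67 and 8.66 in EV cells and 7.32, 7.44 and 7.26 in WWOX cells and fell by 1.37 (adjusted p = 4.51e-05 from limma). Its arrays were apart between the groups. In the TGF-beta, activin and BMP list 3 of 60 genes rose and 2 fell. The co-receptor TGFBR3 rose by 2.54, the BMP target ID4 by 1.57 and the pseudoreceptor BAMBI by 1.50, while the activin chain INHBA fell by 2.10 and the ubiquitin ligase SMURF2 fell by 1.54.

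Other signaling genes moved as single members. The calcium-responsive transcription factor NFATC2 read 6.54, 5.78 and 6.02 in EV cells and 10.68, 10.84 and 10.45 in WWOX cells and rose by 4.54 (adjusted p = 1.18e-06 from limma). MEF2C, a transcription factor of muscle and neural crest derivatives, read 6.08, 4.60 and 5.84 against 9.85, 10.39 and 10.05 and rose by 4.59 (adjusted p = 3.62e-05 from limma). GAS1, a co-receptor for Hedgehog ligands, rose by 3.02, the Notch co-activator MAML2 by 1.97 and the Notch target HEY1 by 1.21. Of 42 genes of the Notch and Hedgehog pathways 5 (11.9%) rose and 0 fell, against 2.11% and 1.79% over all genes. The ERK feedback gene SPRY1 rose by 2.42, while DUSP5, HBEGF and MYC fell by 1.41, 1.86 and 1.17. The fatty acid carrier FABP5 rose by 4.42 and lipoprotein lipase (LPL) by 1.98, and the nuclear receptor PPARG fell by 1.05. The call of PPARG was lost without EV replicate 2 or WWOX replicate 3, and that of HEY1 without EV replicate 1 or 2 or WWOX replicate 1 or 2.

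Genes of excitability, guidance and contact gave calls both ways. For the counts in this paragraph, the shares over all genes were 2.11% called higher and 1.79% lower. Among 44 potassium channel genes 5 (11.4%) rose and 2 (4.55%) fell, led by the regulatory subunit KCNE4 at 4.93 and the inward rectifier KCNJ2 at 2.48. The mutant shared 3 of the 5 rises. The guidance ligand SEMA3A rose by 2.59, the neuropilin NRP2 by 1.93 and the plexin PLXNA1 by 1.57, while 4 of the 46 genes of that list fell. The synaptic adhesion protein NLGN1 rose by 2.14, and its partner family member NRXN3 fell by 2.36. The tight junction proteins CLDN11 and CLDN1 fell by 2.57 and 2.32. In calcium and cyclic nucleotide signaling, the phosphodiesterase PDE4B rose by 2.34 and the phospholipase PLCB4 fell by 3.01. A list of 27 genes tied to YAP and TEAD holds WWTR1, which is not a target, beside their targets. On it CCN2 and WWTR1 rose by 1.38 and 1.01, and ANKRD1 and F3 fell by 1.79 and 1.13. The call of WWTR1 was lost without EV replicate 1 or WWOX replicate 1, and with its most variable probe set.

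Genes of cell state moved in both directions. The shares over all genes were 2.11% called higher and 1.79% lower. Of 32 regulators of the mesenchymal state 5 rose, among them SNAI2 and TWIST1, a transcription factor that read 7.61, 7.59 and 7.28 in EV cells and 9.96, 9.98 and 9.59 in WWOX cells (difference 2.35, adjusted p = 4.41e-05 from limma). On the same list 3 fell, INHBA, TPM2 and HMGA2. Of 31 epithelial markers ESRP1 rose, and the keratin KRT18, its partner KRT8 and the anchoring protein LAD1 fell. KRT18 read 13.32, 13.45 and 13.39 against 11.69, 11.69 and 11.83 and fell by 1.65 (adjusted p = 1.02e-05 from limma), and KRT8 read 9.78, 9.93 and 9.77 against 8.59, 8.82 and 8.97 and fell by 1.03 (adjusted p = 0.000393 from limma), a call lost when EV replicate 2 or WWOX replicate 1 was left out. CDH1 (E-cadherin) averaged 4.67 in EV and 4.54 in WWOX cells and was not called.

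Among lists of basic cell functions no gene was called for mitosis (53 genes), ribosomal proteins (42), the respiratory chain (57), cholesterol and fatty acid synthesis (32), aminoacyl-tRNA synthetases (16) and the unfolded protein response (34). The Wnt list also had 0 of 52 genes called. Over all genes 2.11% were called higher and 1.79% lower, and at these shares lists of such sizes would hold few calls or none. The ATF4 response to amino acid shortage gave 3 rises (SLC7A5, SLC1A4 and DDIT4) and 1 fall among 39 genes. In WFPA against EV cells, 21 of the same 39 genes were called higher, with a median of 1.22.

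Several genes of the pathways and partner proteins that the study's text names were looked up, and none of those given here was called at the brightest probe set. Some of its assays of these genes were made in other cell lines. The study measured SMAD3, fibronectin and beta-catenin as protein, and it reported DVL2, SCAMP3 and CDC5L as proteins that bind WWOX. The RNA levels given here do not test those observations. SMAD3, the TGF-beta signal transducer, read 13.29, 13.27 and 13.19 in EV cells and 13.04, 13.16 and 12.91 in WWOX cells. The WWOX arrays lay below, but the difference of -0.22 (SE 0.0898, limma adjusted p = 0.167) did not pass. Of its other probe sets, a pair passed the p threshold at under 2-fold, with differences of -0.53 and -0.77 (adjusted p = 0.00614 and 0.00172 from limma). SMAD2 and SMAD4 differed by -0.27 and -0.23 (adjusted p = 0.202 and 0.165 from limma). FN1 (fibronectin) read 9.35, 9.51 and 9.20 against 9.38, 9.52 and 9.57 and overlapped between the groups (difference 0.13, limma adjusted p = 0.559). The direction of FN1 depends on the probe set, with differences from -0.66 at its most variable probe set to this value and none of its probe sets called.

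The Wnt mediator DVL2 read 11.49, 11.49 and 11.38 in EV cells and 11.69, 11.60 and 11.66 in WWOX cells, a difference of 0.19 (SE 0.0788, limma adjusted p = 0.164). CTNNB1 (beta-catenin) differed by 0.43 (adjusted p = 0.0697) and the Wnt target AXIN2 by 0.15 (adjusted p = 0.44), both from limma. The study measured AXIN2 RNA by qRT-PCR in other cell lines, with or without Wnt ligands, and reported lower levels with WWOX. The arrays do not repeat that setting. The other probe sets of CTNNB1, which are dimmer, gave -0.22 each and were not called. The differences of STAT3 and JAK2 were -0.43 and -0.29 (adjusted p = 0.211 and 0.396 from limma). SCAMP3, a membrane trafficking protein, differed by 0.30 (adjusted p = 0.0457 from limma), past the p threshold and under 2-fold. The splicing factor CDC5L differed by 0.17 (adjusted p = 0.362 from limma) at its brightest probe set, while its other 3 probe sets gave -0.89, -0.49 and -0.48.

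A minority of the changes was shared by the mutant. WFPA and WWOX cells were compared with the same 3 EV arrays, so these comparisons are not independent and values are given side by side. In WFPA against EV cells 304 genes (1.54%) were called higher and 137 (0.693%) lower. Of the 417 genes that rose in WWOX cells 90 (21.6%) also rose in WFPA cells, and of the 354 that fell 65 (18.4%) also fell. WWOX cells went further than WFPA cells, by a called difference between them, in 22 of the shared rises and 13 of the shared falls, and WFPA cells went further in 9 and 1. A called difference from the mutant without a call in the mutant was found for 233 rises and 175 falls. The mutant was called in the opposite direction for 11 and 21 genes, and the remaining 83 and 93 were called neither in WFPA against EV cells nor between WWOX and WFPA cells.

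Shared changes include some of the largest. PCLO, a scaffold of the presynaptic zone, read 8.50, 8.71 and 8.74 in EV cells, 12.60, 12.62 and 12.62 in WFPA cells and 13.39, 13.44 and 13.36 in WWOX cells. MMP1 read 9.50, 9.55 and 9.53 in WFPA cells, between the EV and WWOX arrays, and PTPRC 7.61, 7.51 and 7.88, again between them. The metalloproteinase ADAMTS2 read 9.87, 10.01 and 9.82 in EV cells, 6.63, 6.83 and 6.80 in WFPA cells and 6.51, 5.70 and 5.96 in WWOX cells, with differences from EV of -3.15 and -3.84. PLCXD3, LYPD6B and LOC151760 had differences of -3.58, -3.52 and -3.73 in WFPA cells and of -3.70, -3.61 and -3.62 in WWOX cells.

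Lineage genes were mostly not shared. SOX10 read 5.44, 5.30 and 5.26 and S100B 6.57, 6.55 and 5.80 in WFPA cells, and both differed between WWOX and WFPA cells by 5.21 and 5.92 (adjusted p = 7.02e-08 and 8.08e-07 from limma). MITF read 11.45, 11.33 and 11.43 in WFPA cells, a difference from EV of -0.47 (adjusted p = 0.0266 from limma, under 2-fold). Of the 7 neural crest genes SNAI2 alone was also called higher in WFPA cells, by 1.68. ERBB3 was called neither in WFPA against EV cells nor between WWOX and WFPA cells, and the other 5 were called between WWOX and WFPA cells. On the melanocyte list, 3 of the 4 genes that rose were called between WWOX and WFPA cells. None of the 5 PSG genes was called between WFPA and EV cells, and each was called between WWOX and WFPA cells. For PSG2 the WFPA arrays read 11.76, 11.81 and 11.88.

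**Figure D4:**
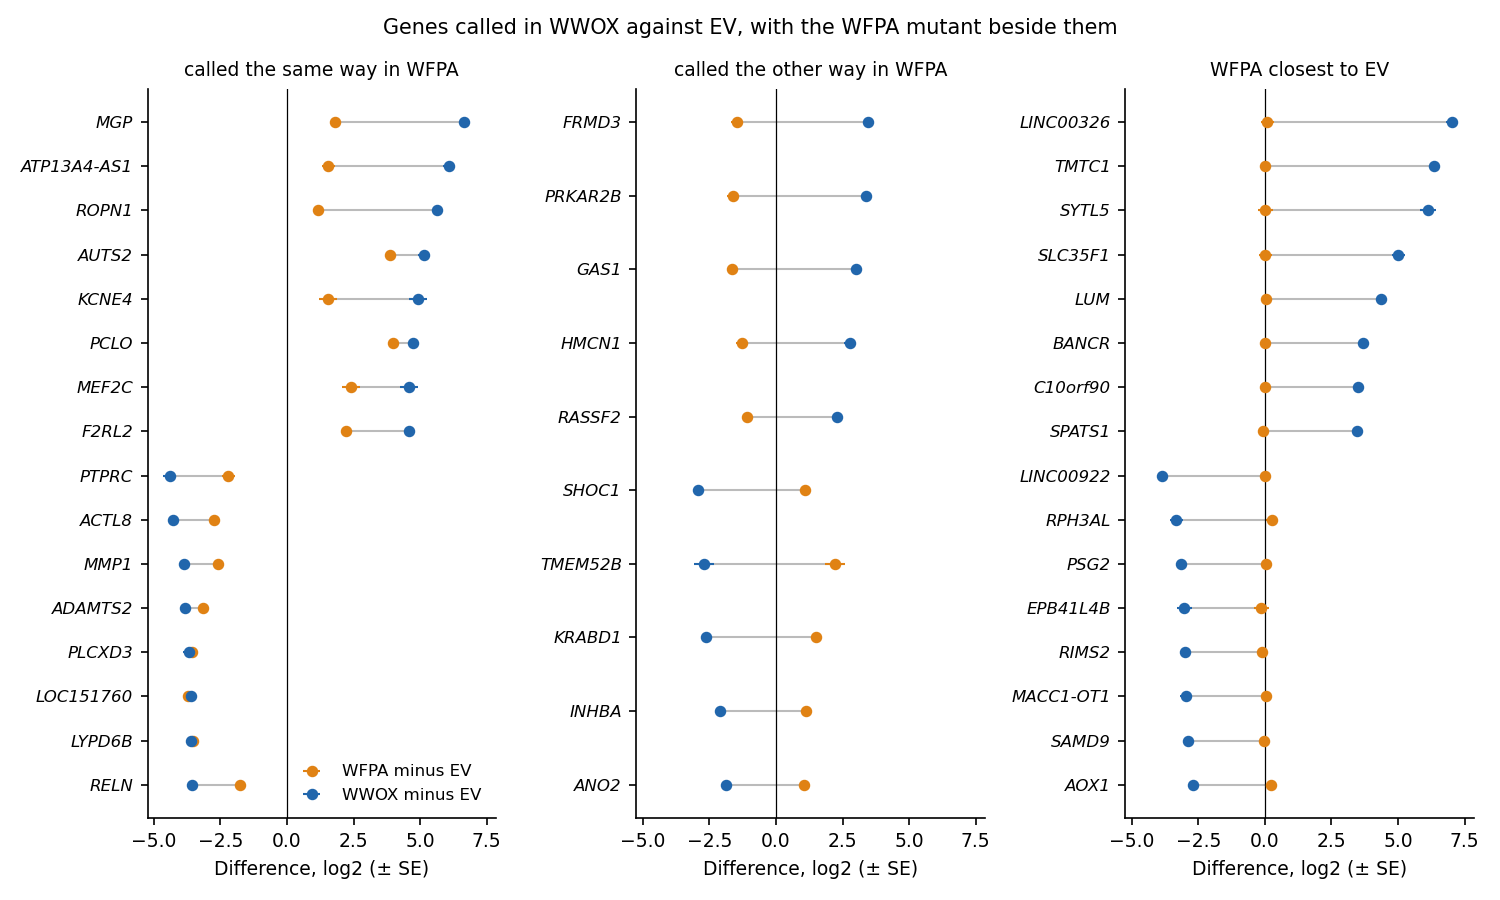
Differences from EV cells (x axis, log2, with the standard error of limma) in WFPA (orange) and WWOX (blue) cells for named genes called in WWOX cells, in 3 panels. On the left both constructs share the direction, in the middle WFPA has the opposite call (GAS1 at 3.02 and -1.67), and on the right are the genes among the 50 largest changes in each direction whose WFPA level was closest to EV, a choice that puts the orange points near 0.

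Some genes moved in opposite directions. GAS1 read 9.15, 8.94 and 9.03 in EV cells, 12.14, 12.13 and 11.91 in WWOX cells and 7.44, 7.24 and 7.43 in WFPA cells, differences from EV of 3.02 and -1.67 (adjusted p = 4.27e-07 and 4.12e-05 from limma). The kinase subunit PRKAR2B, the cytoskeletal protein FRMD3, the matrix protein HMCN1 and the RAS-binding protein RASSF2 likewise rose in WWOX cells, by 3.40, 3.47, 2.76 and 2.29, with differences of -1.62, -1.46, -1.29 and -1.10 in WFPA cells. INHBA read 7.97, 7.31 and 7.84 in EV cells, 5.59, 5.44 and 5.78 in WWOX cells and 8.94, 8.74 and 8.87 in WFPA cells. PPARG differed from EV by -1.05 in WWOX and by 1.37 in WFPA cells.

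Called genes were also neighbors on the chromosomes. Among 19690 genes with a place in the order, 44 runs of 2 neighboring genes and 6 runs of 3 were called in the same direction, as a description with no test. The runs of 3 were NEK7, ATP6V1G3 and PTPRC on chromosome 1, MMP1, MMP3 and MMP12 on chromosome 11, SOCS2-AS1, SOCS2 and CRADD on chromosome 12 and GRPR, CTPS2 and S100G on chromosome X, all lower, and GPR39, LYPD1 and NCKAP5 on chromosome 2 and ZNF704, PAG1 and FABP5 on another chromosome, both higher. GPR39, a zinc-sensing receptor, read 9.23, 9.19 and 9.23 in EV cells and 12.11, 12.07 and 11.81 in WWOX cells, and LYPD1, a modulator of nicotinic receptors, 9.13, 8.96 and 9.13 against 11.89, 12.06 and 11.68. Their rises were close in size, 2.78 and 2.81. NCKAP5 read 2.15, 2.56 and 2.34 against 5.37, 5.28 and 2.80, so that WWOX replicate 3 hardly differed from EV cells, and its call (adjusted p = 0.0438 from limma) was lost when any 1 of the 9 arrays other than WWOX replicate 3 was left out. Without WWOX replicate 3 its rise was 2.97. The call of NEK7 was lost without WWOX replicate 3 and that of PAG1 without WWOX replicate 1.

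The promoters of LYPD1 (chr2:132671477-132671776, minus strand) and NCKAP5 (chr2:133568414-133568713, minus strand) are shown because both neighbors were called higher and hold the AP-1 letters TGANTCA, in capitals. The call of NCKAP5 has the limits given above, and the promoter of GPR39 is not shown. The same window and build as above apply. In LYPD1 a pair of matches adjoin at positions -217 and -210, and the match in NCKAP5 starts at -191.
LYPD1: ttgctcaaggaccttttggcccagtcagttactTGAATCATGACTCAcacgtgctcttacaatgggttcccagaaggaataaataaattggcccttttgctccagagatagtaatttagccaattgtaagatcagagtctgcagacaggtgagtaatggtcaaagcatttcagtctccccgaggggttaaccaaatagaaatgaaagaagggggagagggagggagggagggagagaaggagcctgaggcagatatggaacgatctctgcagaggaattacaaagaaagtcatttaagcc
NCKAP5: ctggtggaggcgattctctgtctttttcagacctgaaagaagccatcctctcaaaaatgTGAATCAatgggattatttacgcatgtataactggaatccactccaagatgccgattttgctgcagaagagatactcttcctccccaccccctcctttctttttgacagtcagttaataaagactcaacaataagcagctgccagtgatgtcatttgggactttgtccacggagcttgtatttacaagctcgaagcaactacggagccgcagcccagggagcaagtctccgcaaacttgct

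TGANTCA on either strand was present in 5.84% of all 15384 promoters, in 9.52% of those of genes called higher and in 10.2% of those of genes called lower. The ETS letters CCGGAAG were present in 14.4% of all, 4.76% of the higher and 6.79% of the lower. GGGCGG, the GC box, was present in 58.9%, 60.6% and 48.3%, and TATAAA in 8.76%, 10.2% and 13.6%. These shares are a description with no test, and 17 motifs were searched in all.

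Expressed genes of some chromosome regions shifted together by less than 2-fold. In 589 windows of 40 expressed neighbors, the median difference between WWOX and EV cells ran from -0.392 to 0.489, with a middle value of -0.0143. Windows with a median over 0.2 numbered 21, and those under -0.2 numbered 22. Windows were moved in steps of 20 genes, so neighboring windows overlap and these counts are not counts of separate regions. Most of the low windows lay on chromosome 14, and many of the high ones on chromosome 7. The highest window lay on chromosome 7, from PMS2P2 to CLDN12, with 35 of 40 genes above 0. Its genes had median distances from the EV mean of 0.539, 0.518 and 0.442 in the 3 WWOX arrays and of 0.459, 0.483 and 0.503 in the 3 WFPA arrays. The EV arrays themselves lay between -0.0350 and 0.0522.

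The lowest windows lay on chromosome 14. From HIF1A to MAP3K9, 34 of 40 genes lay below 0, and the WWOX arrays had medians of -0.324, -0.432 and -0.450 and the WFPA arrays -0.247, -0.249 and -0.160. On chromosome 12, from BTG1 to NUP37, a region that holds SOCS2 and CRADD, the WWOX arrays had medians of -0.176, -0.246 and -0.393, while the WFPA arrays had -0.0936, -0.0512 and -0.150. By chromosome, the share of genes called higher was 4.55% on chromosome 21, 3.86% on chromosome 7 and 3.66% on chromosome 3, and chromosome 5 had the highest share called lower (3.15%).

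**Figure D5:**
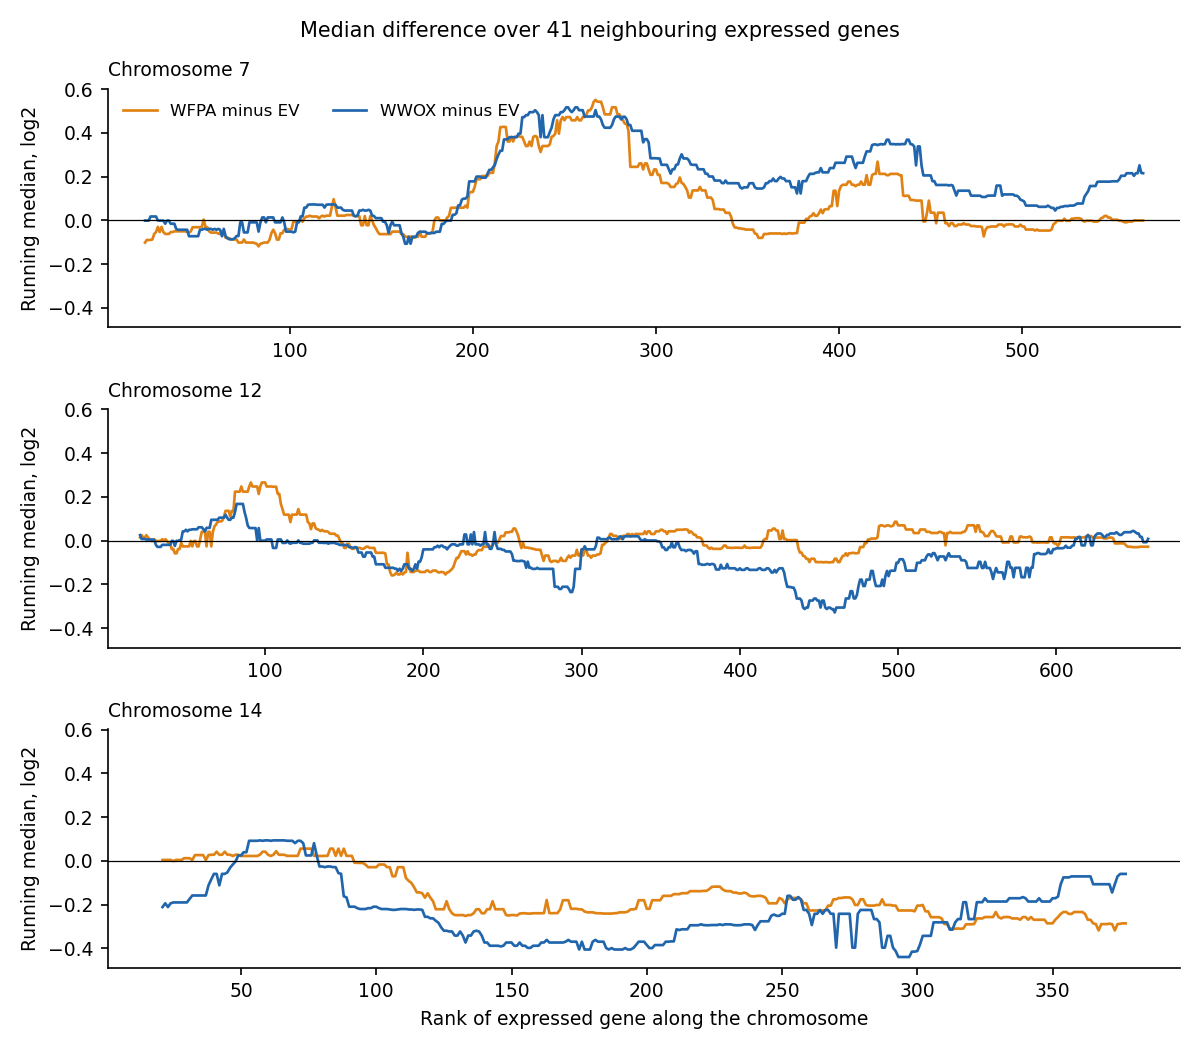
Running median of the difference from EV cells (y axis, log2) over 41 expressed genes in their order along chromosomes 7, 12 and 14 (x axis, rank), for WFPA (orange) and WWOX (blue) cells. On chromosome 7 both lines rise together in the middle, on chromosome 14 both lie below 0 over most of the length, and on chromosome 12 the dip in the second part is seen in WWOX cells.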

How the data were processed

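Total RNA of 9 samples, 3 in each of 3 groups, was read on Affymetrix Human Genome U133 Plus 2.0 arrays. The deposited values are log2 intensities per probe set, which the authors made in Partek Genomics Suite, and the background correction and normalization are not given in the sources used here. They were used as deposited, so neither step could be checked, and the number of arrays limits the precision. Of 54675 probe sets, 62 array controls were left out. The platform annotation gave 1 gene to 41091 probe sets and several to 1801, and the latter were named by none. For each of 19775 genes the brightest probe set, by the mean of the 9 arrays, was used.

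All 9 arrays were fitted by group in limma 3.58.1 (R 4.3.3, 6 residual and 3.04 prior degrees of freedom), with Benjamini-Hochberg adjustment over 54613 probe sets. The procedure was tested on simulated data. A call needed an adjusted p under 0.05 and 2-fold, and a change counted as shared where WFPA against EV had the same call. Genes were named as the 15 largest rises and falls, up to 3 called in each direction per list, 8 shared and 5 opposite in each direction, and genes of the study's text, and other members of lists and runs were added after their values were seen. Members and lists were chosen with earlier results of these data known. Array replicate numbers did not pair samples. Promoters came from RefSeq (GRCh38.p14). Alternatives covered the arrays fitted, moderation, adjustment, fold limit, low-level filters, scaling, a replicate block, each array left out and the choice of probe set.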

Additional observations from a re-analysis of the deposited data

How the results depend on the processing

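The counts of calls depended most on the threshold. With Bonferroni adjustment 319 probe sets were called higher and 188 lower, with 60 shared by the mutant, or 172, 108 and 33 genes. With no fold limit these were 2757, 3706 and 1181 probe sets, or 1377, 1554 and 582 genes. At a 4-fold limit they were 306, 157 and 71 probe sets, or 157, 90 and 36 genes. With probe sets over the array median alone, 578 were called higher, a setting that tests fewer probe sets. With the most variable probe set of each gene in place of the brightest, 579 genes were called lower. Leaving out 1 array at a time gave 856 to 996 probe sets higher, 758 to 1229 lower and 253 to 310 shared, or 406 to 438, 330 to 409 and 134 to 157 genes.

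A replicate block gave 887 probe sets higher, 876 lower and 287 shared. Same-numbered arrays of different groups correlated between -0.052 and 0.035 in their deviations, so the numbers were not taken as pairing. Of 194 named genes, none changed sign under another fit, and with an array left out 3 to 12 lost their call. More calls were lost under stricter settings, 77 with Bonferroni adjustment and 86 at the 4-fold limit. The mean of all probe sets lost 38, the fit without moderation 13 and the fit of the 6 EV and WWOX arrays alone 8. Quantile normalization lost the calls of FUT8, KRT8 and NCKAP5, and median centring that of WWTR1. With the most variable probe set CDC5L, CTNNB1 and FN1 turned to -0.89, -0.22 and -0.66, and with the mean of all their probe sets to -0.42, -0.000983 and -0.13. None of these 3 was called as reported. Dim genes limit the size of large changes, since no signal over background is given.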
